A study of Rattus norvegicus with 5 samples.

Results

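Cytosolic ribosomal protein genes were examined in rat parotid gland, the salivary gland beside the ear, in the first hour after isoproterenol. They were chosen by symbol, as probes named Rpl, Rps or Rplp with a number, which left out the Rps6k kinases and the genes of mitochondrial ribosomes. Of 22517 probes on the array, 64 fitted this naming rule, 1 for each of 64 genes. Of these, 60 were above background on at least 1 array, at a detection p-value under 0.01, among 10793 such probes in all. The probes of Rpl12, Rpl34, Rpl36a and Rps19 were above background on none of the 5 arrays and were not tested.

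The samples were parotid glands of 5 male Sprague-Dawley rats aged 2 to 3 months, with 1 Illumina bead array for each rat. The rats were given isoproterenol, an agonist of beta-adrenergic receptors, intraperitoneally, with glands taken at 10, 30 or 60 min (1 rat per time), or saline by the same route as the control (n = 2 rats). Isoproterenol is labelled as dosed at 20 mg per g of body weight, a unit that is in doubt because the amount would be extraordinarily large. How long after saline the control glands were taken is not stated, so an effect of isoproterenol cannot be told apart from handling or from a difference between rats.

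The ribosome reads messenger RNA with its small subunit and joins amino acids with its large subunit, and each cytosolic ribosomal protein is as a rule present once per ribosome. The messenger RNAs of these proteins start with a run of pyrimidines, the 5′ terminal oligopyrimidine (TOP) tract, through which mTOR and the RNA-binding protein LARP1 control their translation. Parotid acinar cells make and export large amounts of secretory protein, and repeated isoproterenol makes rodent salivary glands grow.

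The start-site windows below are shown because the TOP tract is the sequence feature described for this gene family, though not every window has it at the annotated start. They cover the members that passed the test at 60 min and 5 others. Each is 30 bases from RefSeq (build GRCr8), 10 bases before the annotated start followed by the start itself at position 11, with runs of at least 5 bases that are each C or T in capitals. The first 5 genes were higher at 60 min, the next 4 were below both saline rats at 60 min, and Rplp0 and Rpl10 are bright members with a tract at the start.
Rps24, chr16:96507-96536, plus strand: ggTCCTCTTTTCCTCCTTTacagctcgggc
Rps2, chr10:14251838-14251867, plus strand: TCTTTTTCTTCgggaaaacacgtgagtctg
Rpl3l, chr10:14258436-14258465, plus strand: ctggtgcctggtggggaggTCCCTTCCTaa
Rpl5, chr14:1995206-1995235, minus strand: CTTTCCCacgtcgcttgcgtcctggaggtg
Rpl13a, chr1:104748894-104748923, minus strand: TCCTTTCCTaggcggctgccgaagatggcg
Rpl24, chr11:58128386-58128415, minus strand: tagggaggagaTTCTCTaccctataaggtg
Rps27, chr2:177964587-177964616, minus strand: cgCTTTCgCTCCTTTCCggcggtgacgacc
Rps3a, chr2:173827023-173827052, minus strand: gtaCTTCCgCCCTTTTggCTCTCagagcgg
Rpl39, chrX:121195877-121195906, minus strand: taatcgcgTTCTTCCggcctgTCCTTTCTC
Rplp0, chr12:46718371-46718400, minus strand: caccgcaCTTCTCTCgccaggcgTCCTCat
Rpl10, chrX:157205840-157205869, plus strand: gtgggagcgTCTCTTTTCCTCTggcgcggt

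A promoter entry was matched for 52 of the 64 genes. A C exactly at the annotated start followed by 4 bases that are each C or T was found in 21 of them (40.4%), against 2.63% of all 33469 promoters in the table. With the C allowed within 10 bases on either side of the start, the share was 75% of the family and 28.9% of all promoters. Among the 5 genes that rose at 60 min, none had the tract exactly at the start, and all 5 had it within 10 bases. These 5 were picked by their 60 min result, and Rpl5 entered the test through the group where it was high. Over all tested members with a promoter entry, the 36 with the tract within 10 bases had a median 60 min log2 difference of 0.11. The 12 without it had a median of 0.24. A link between the tract and the 60 min difference was not tested.

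On each array 9095 to 9459 probes were above background. The arrays also differed in markers of other cell types. The median log2 value of 13 skeletal muscle markers was 11.41 and 5.93 in the saline rats, and 5.97, 11.58 and 8.40 at 10, 30 and 60 min. Their summed linear values lay between 1359 and 53325 in the isoproterenol rats, against 1361 and 52975 in the saline rats. All 7 measured connective tissue and vessel markers fell at 60 min, with a median of -1.86, and 6 of 7 adipocyte markers fell (median -1.53). Summed linear values of connective tissue markers were 5302, 8132 and 6347 at 10, 30 and 60 min against 20825 to 21744 in the saline rats, and those of adipocyte markers 3817, 6324 and 2181 against 7410 to 7874. Of 5 lymphoid markers Ccr7 rose at 60 min (1.90), of 6 red cell markers Hbe1 rose (1.87) while 4 were below the saline mean, and of 10 acinar genes Oprpn rose (1.65). Summed linear values of red cell markers were 2600, 9519 and 13587 at 10, 30 and 60 min, against 14126 to 16311 in the saline rats. The 10 acinar genes had a 60 min median of 0.07, and the saline rats differed by a median of 0.07 among them. The 60 min medians of the other lists were further from 0. What part any of these lists had in the results below was not tested. The defining acinar genes Amy1 and Bpifa2 were above 15 on the log2 scale on every array, near the largest value of 15.32. In whole-gland RNA, fewer cells of a type and less RNA per cell cannot be told apart.

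At 60 min, 5 ribosomal protein genes rose and 1 fell, and 40 of the 60 tested members lay within 0.5 of the saline mean on the log2 scale. The share of all genes within 0.5 was not counted. The family's quartiles were -0.18 and 0.35, against -0.57 and 0.36 over 7627 tested genes. The genes that rose were Rps24, Rpl3l, Rps2, Rpl5 and Rpl13a, by 1.19 to 1.68 on the log2 scale, and the gene that fell was Rpl24. These 6 of 60 probes (10.0%) passed limma's test at an adjusted p under 0.05, against 24.4% of all 10793 tested probes. The family was far brighter than this background. Its median log2 value was 13.05 and 13.18 in the saline rats, against 7.09 and 7.07 over 7627 tested genes. Whether level bears on the lower share or the narrower quartiles was not tested. Rpl5 came above background only on isoproterenol arrays and so entered the test through the group where it was high, and leaving it aside 4 members rose. By direction, 8.33% of the family rose against 13.0% of all tested probes, and 1.67% fell against 11.4%. At an unadjusted p under 0.05 the count was 15 of 60 (25%, against 42.0% of all tested probes), 10 higher (16.7%, against 20.1%) and 5 lower (8.33%, against 22%). Beyond the tests, 32 members (53.3%) lay above both saline rats at 60 min and 20 (33.3%) below both, against 39.3% and 48.2% of all tested probes. The median difference of the family was 0.11, against -0.11 over 7627 tested genes, with 37 members above the saline mean and 23 below it. Of the 7627 genes, 3276 were above the saline mean and 4350 below it. The saline rats themselves differed by a median of 0.08 in this family. Against saline rat 2 alone the family's median was 0.04, and against saline rat 1 alone it was 0.15. When dim probes were kept in the fit, none of the 6 passed (adjusted p from 0.0700 to 0.132 with limma), whereas 13 to 15 members passed under 4 other settings of background, variance or input values. In those 4 settings 25.3% to 27.6% of all tested probes passed.

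**Figure D1:**
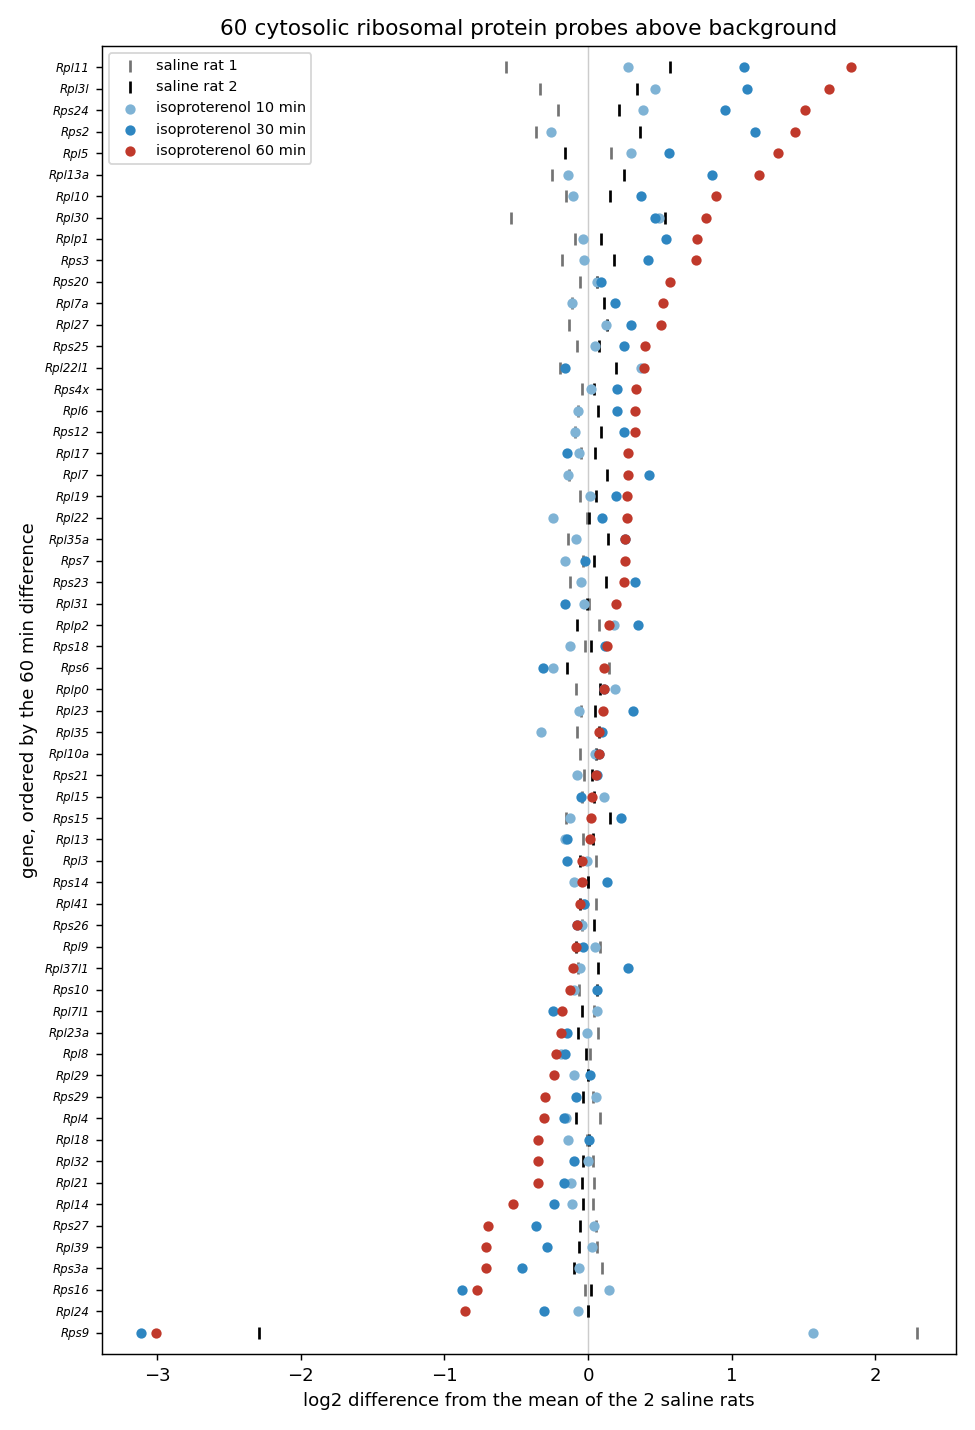
Log2 difference of each of the 60 tested ribosomal protein probes from the mean of the saline rats (horizontal axis), with genes ordered by their 60 min value (vertical axis). Ticks are the saline rats and points the isoproterenol rats at 10, 30 and 60 min. The 60 min values run from -3.00 (Rps9) to 1.83 (Rpl11), and 40 of the 60 members lie within 0.5 of the saline mean at 60 min. Quartiles at 60 min are -0.18 and 0.35 for these members, and -0.57 and 0.36 over all tested genes.

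Rps24 encodes a protein of the small subunit whose human gene is mutated in Diamond-Blackfan anaemia. Its log2 value was 8.66 and 9.08 in the saline rats, 9.25 at 10 min, 9.83 at 30 min and 10.38 at 60 min. All 3 isoproterenol rats lay above both saline rats. At 60 min Rps24 was 1.51 ± 0.26 (SE) above the saline mean of 8.87 ± 0.30 (SD, n = 2), or 2.85-fold higher (adjusted p = 0.0290 with limma).

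Rpl3l encodes a form of the large-subunit protein Rpl3 that in mammals is made mainly in heart and skeletal muscle. It stood at 7.41 and 8.09 in the saline rats, and at 8.22, 8.86 and 9.43 at 10, 30 and 60 min. The values did not overlap between treatments. The median of the skeletal muscle markers was 11.41 and 5.93 in the saline rats, and 5.97, 11.58 and 8.40 at 10, 30 and 60 min. A link between Rpl3l and muscle content was not tested. The 60 min difference was 1.68 ± 0.33 (SE), or 3.20-fold (adjusted p = 0.0314 with limma). The Rpl3 probe itself lay at 14.68 and 14.57 in the saline rats and at 14.61, 14.48 and 14.59 at 10, 30 and 60 min, near the top of the scale.

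Rps2 encodes a small-subunit protein near the entry channel for messenger RNA. It was measured at 9.41 and 10.12 in the saline rats, 9.51 at 10 min, 10.93 at 30 min and 11.20 at 60 min. The rat at 10 min lay between the saline rats, and those at 30 and 60 min lay above them. The rise at 60 min was 1.44 ± 0.35 (SE), or 2.71-fold (adjusted p = 0.0438 with limma).

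Rpl13a, a large-subunit protein also known in human myeloid cells for a role in silencing inflammatory messenger RNAs, followed the same order. Its values were 10.53 and 11.02 in the saline rats, then 10.64, 11.64 and 11.97 at 10, 30 and 60 min. The 10 min rat again lay within the saline range. At 60 min it was 1.19 ± 0.28 (SE) higher, or 2.29-fold (adjusted p = 0.0420 with limma).

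Rpl5 and Rpl11, large-subunit proteins that bind 5S ribosomal RNA and restrain the p53 inhibitor Mdm2, had dim probes. Rpl5 was not above background in either saline rat (5.02 and 4.70) and stood at 5.16, 5.43 and 6.18 at 10, 30 and 60 min. Its 60 min difference was 1.32 (adjusted p = 0.0294 with limma), but 0.65 with no background correction and 0.59 on the authors' processed values. After background correction it was at least 2.18-fold higher, taken over the lowest signal above background on each saline array, a bound that does not hold for the uncorrected intensities. Rpl11 had the largest positive 60 min difference of the family and did not pass. It was not above background in saline rat 1 (4.69), stood at 5.83 in saline rat 2 and reached 5.54, 6.35 and 7.09 at 10, 30 and 60 min. Its difference of 1.83 ± 0.49 (SE) came with an adjusted p of 0.0546 in limma, and the saline rats lay 1.14 apart. With no background correction the difference was 1.07.

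Rpl24, a large-subunit protein at the contact with the small subunit, was the member that fell. Its saline values were both 12.87, and it was measured at 12.80, 12.57 and 12.02 at 10, 30 and 60 min. All 3 isoproterenol rats lay below both saline rats, in the order of time, with a difference of only -0.07 at 10 min. The 60 min difference was -0.86 ± 0.20 (SE), or 1.81-fold lower (adjusted p = 0.0425 with limma). Both saline rats had the same deposited intensity (7559.6). The SE therefore came from the prior over all probes and measures no spread between rats for this probe.

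**Figure D2:**
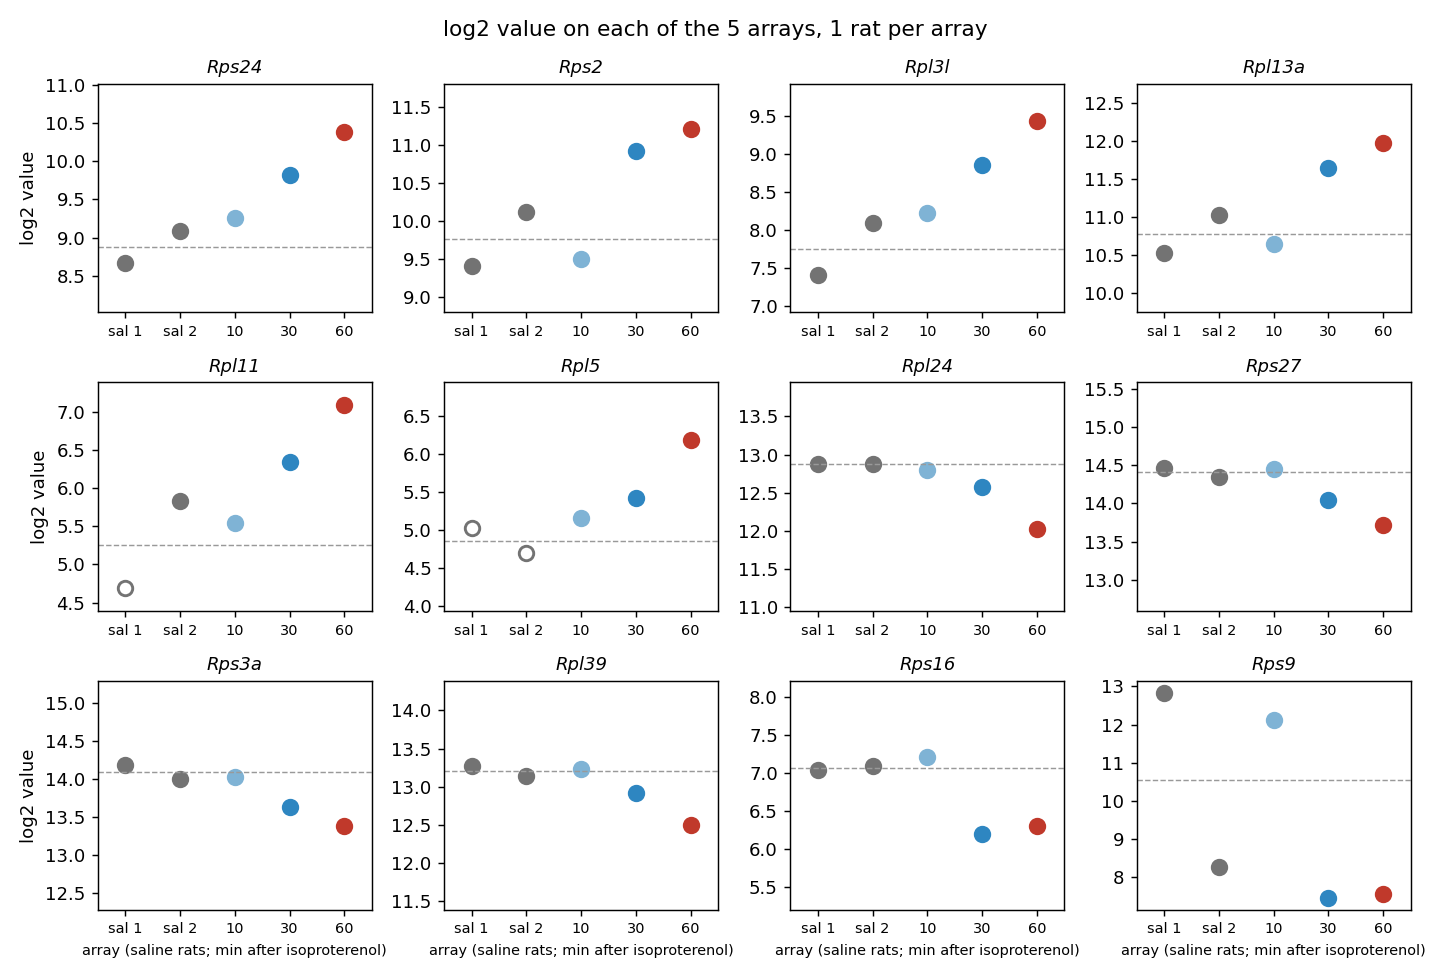
Log2 value (vertical axes, spanning different levels) of 12 members on each array (horizontal axes: saline rats 1 and 2, then 10, 30 and 60 min after isoproterenol). Open circles were not above background and the dashed line is the saline mean. Rps24, Rpl3l and Rpl5 lie above both saline rats at all times, Rpl24 lies below them, and Rps9 is high in saline rat 1 and at 10 min only.

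A further set of members stood below saline at 60 min without passing. Rps27, a zinc-finger protein of the small subunit, was measured at 14.47 and 14.35 in the saline rats and at 14.45, 14.05 and 13.71 at 10, 30 and 60 min. Rps3a stood at 14.18 and 13.99 in the saline rats, and at 14.03, 13.63 and 13.38. Rpl39, which lines the exit tunnel of the large subunit, was at 13.27 and 13.14, and then at 13.24, 12.92 and 12.50. In each of these the 30 and 60 min rats lay below both saline rats. Their 60 min differences were -0.70, -0.71 and -0.71 (adjusted p = 0.0696, 0.0722 and 0.0680 with limma). All 3 were past the threshold without background correction, under an offset of 50, on the authors' processed values and when the prior variance followed intensity.

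Rps16, a small-subunit protein, had a step between 10 and 30 min. It was at 7.04 and 7.09 in the saline rats and at 7.21 at 10 min, but at 6.19 and 6.30 at 30 and 60 min. The saline rats differed by 0.05, and the later rats lay 0.87 and 0.77 below their mean (adjusted p = 0.207 and 0.0535 with limma).

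Rps9, a small-subunit protein of the decoding region, varied far more than any other member. Its deposited intensity was 7378 and 357 in the saline rats and 4489, 223 and 236 at 10, 30 and 60 min. On the log2 scale these are 12.84 and 8.26, then 12.12, 7.44 and 7.55. Saline rat 1 and the 10 min rat were high, and the other 3 rats were low. The saline rats lay 4.58 apart, so the 60 min difference of -3.00 ± 1.81 (SE) did not pass (adjusted p = 0.270 with limma). On the arrays where Rps9 was high, the median of the muscle markers was 11.41 (saline rat 1) and 5.97 (10 min). On the others it was 5.93 (saline rat 2), 11.58 (30 min) and 8.40 (60 min). A link between Rps9 and muscle content was not tested. The gene ID and transcript given for this probe by the array annotation were not in the GRCr8 reference table used here, so the locus it measures was not checked.

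Among the stalk proteins, which recruit elongation factors to the large subunit, none passed. Rplp1 stood at 13.52 and 13.70 in the saline rats and at 13.58, 14.16 and 14.37 at 10, 30 and 60 min, with the 2 later rats above both saline rats (difference at 60 min 0.76, adjusted p = 0.0623 with limma). Rplp0, often used as a reference gene, was at 14.81 and 14.99 in the saline rats and at 15.09, 15.01 and 15.01, near the top of the scale. Rplp2 was above background on 1 array only and lay between 4.74 and 5.17.

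In the large subunit, 3 of 36 probes rose (8.33%) and 1 fell (2.78%) at 60 min, with a median of 0.08. The 3 include Rpl5, which entered the test through the group where it was high. In the small subunit 2 of 21 rose (9.52%) and none fell, with a median of 0.11 and 8 below the saline mean. Over all tested probes 13.0% rose and 11.4% fell. Rpl10, the large-subunit protein placed late in assembly, was 0.89 higher without passing (adjusted p = 0.0542 with limma), with 14.39 at 60 min against 13.34 and 13.65 in the saline rats. Rps3, which also acts in DNA repair, was 0.75 higher (adjusted p = 0.0857 with limma). Rps6, the substrate of the S6 kinases, was at 13.51 and 13.22 in the saline rats, 13.12 at 10 min, 13.05 at 30 min and 13.48 at 60 min. The 60 min rat lay within the saline range, so no difference was detectable for Rps6 at this time.

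The 44 members that had an unadjusted p of 0.05 or more at 60 min, leaving Rps9 aside, lay between -0.52 (Rpl14) and 0.82 (Rpl30), with 27 above and 17 below the saline mean. Of these, 40 were within 0.5 of it. The 44 members were picked by their p, so that none passed and that most differences were small follows from this choice.

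Paralogue forms other than Rpl3l showed no difference past the threshold. Rpl22l1 was at 5.23 and 5.62 in the saline rats and at 5.79, 5.26 and 5.81 at 10, 30 and 60 min, and its partner Rpl22 at 12.56 and 12.57, then 12.32, 12.66 and 12.84. Rpl7l1, a relative of Rpl7 with a role in ribosome assembly, was 0.18 below saline at 60 min (10.82 against 11.04 and 10.96 in the saline rats), whereas Rpl7 was 0.28 above it (10.81 against 10.40 and 10.67). Neither passed (adjusted p = 0.547 and 0.410 with limma), and the difference between them was not tested. Rpl37l1 differed by -0.11 and Rps4x, the X-linked form of Rps4, by 0.33.

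Part of the family was near the top of the scale. A total of 15 tested members had a mean log2 value above 14 over the 5 arrays, on a scale that ended at 15.32, so that an increase could be recorded only up to that end. Whether the end of the scale affected the differences of these 15 members was not tested. Among them 3 were above and 12 below the saline mean at 60 min, with a median of -0.13 and a range from -0.70 to 0.33, and none passed. The 33 tested genes of any kind at this level, which include these 15 members, had a median of -0.05. Of the other 45 members, 34 were above and 11 below saline, with a median of 0.26. Rplp0, Rpl41 and Rpl9 were nearest the top, with 60 min differences of 0.11, -0.06 and -0.08.

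**Figure D3:**
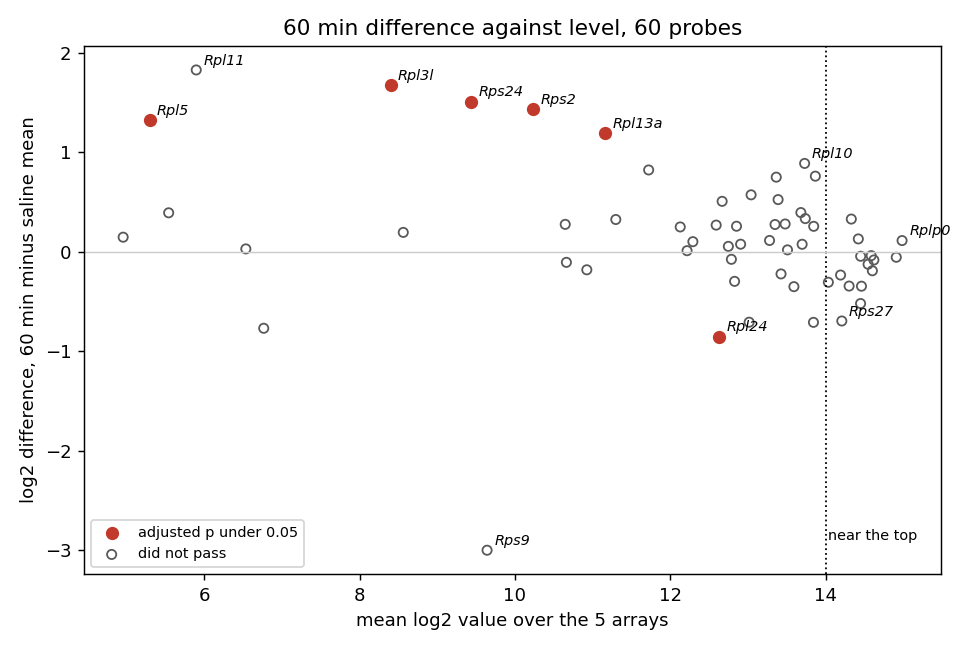
Log2 difference of the 60 min rat from the saline mean (vertical axis) against the mean log2 value over the 5 arrays (horizontal axis) for 60 ribosomal protein probes. Filled points passed limma's test and the dotted line at 14 marks the near-top range. The 6 probes that passed have mean values between 5.30 and 12.63, and the 15 probes past the line lie between -0.70 and 0.33.

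At 30 min no member passed. By limma 0 of 60 had an adjusted p under 0.05 (0% of all tested probes), and 5 had an unadjusted p under 0.05 (Rps2, Rpl3l, Rps24 and Rpl13a higher, Rps16 lower), 8.33% against 19.8% of all tested probes. By direction these backgrounds were 9.50% higher and 10.3% lower. The largest positive differences were those of Rps2 (1.16), Rpl3l (1.10), Rpl11 (1.09), Rps24 (0.95) and Rpl13a (0.86). The same saline rats enter these differences and those at 60 min. The largest negative ones, besides Rps9 (-3.11) and Rps16 (-0.87), were Rps3a (-0.46), Rps27 (-0.36) and Rps6 (-0.31). The median of the family was 0.08, against -0.04 over all tested genes.

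At 10 min the family was close to saline. No member passed or had an unadjusted p under 0.05 in limma, against 0.0278% and 6.07% of all tested probes. Apart from Rps9 (1.56), the largest differences were those of Rpl30 (0.49), Rpl3l (0.47), Rps24 (0.38) and Rpl22l1 (0.37) on the higher side. On the lower side they were Rpl35 (-0.33), Rps2 (-0.26), Rpl22 (-0.25), Rps6 (-0.24) and Rpl8 (-0.19). Rpl30 was 10.83 and 11.90 in the saline rats and 11.86, 11.83 and 12.19 at 10, 30 and 60 min, so saline rat 1 stood apart from the other 4 rats. The family's median was -0.05, against 0.03 over all tested genes.

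Values ran in the order of the 3 times, with the 60 min rat outside the saline range, in 30 of 60 members (50%), against 53.6% of all tested probes. In 20 of 60 (33.3%) the values were lowest at 10 min, higher at 30 min and highest at 60 min, with the 60 min rat above both saline rats, against 24.4% of all tested probes. In 10 of 60 (16.7%) the reverse order held with the 60 min rat below both saline rats, against 29.2%. All 3 isoproterenol rats were above both saline rats for Rpl3l, Rpl5, Rplp0, Rplp2 and Rps24 (8.33%, against 14% of all tested probes). Of these, Rpl5 and Rplp2 were not above background in either saline rat, so their order rests on values without a measured saline level, and Rplp0 was near the top of the scale. They were below both for Rpl14, Rpl21, Rpl24, Rpl4 and Rpl8 (8.33%, against 16.9%). By size, 7 members lay at least 1 from the saline mean and outside the saline range at 60 min (11.7%, against 21.0%), 6 higher (10.0%, against 11.9%) and Rps9 lower (1.67%, against 9.06%). At 30 min 4 did so (6.67%, against 6.75%), Rpl11, Rpl3l and Rps2 higher and Rps9 lower, and at 10 min none did (2.19% of all tested probes). The saline rats themselves lay at least 1 apart for Rpl11, Rpl30 and Rps9 (5.00% of the family, against 2.17%).

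Taking all 3 isoproterenol rats as 1 group against saline, no member passed. The smallest adjusted p in limma was 0.50, and 2 members had an unadjusted p under 0.05, Rpl3l and Rps24, both higher (3.33%, against 9.41% of all tested probes and 3.45% on the higher side, with 0% past the adjusted threshold). The difference between 60 and 10 min likewise passed for no member (0% of all tested probes). The smallest adjusted p was 0.0725, for Rps2, which was 1.69 higher at 60 min than at 10 min, and 14 members had an unadjusted p under 0.05 (23.3%, against 33.3%). For 60 against 30 min no member passed either, and Rpl5 had an unadjusted p under 0.05 (1.67%, against 13.5%).

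Over the 5 arrays the median member deviated from its own mean by -0.05 and 0.01 in the saline rats and by -0.08, 0.07 and 0.06 at 10, 30 and 60 min. Rpl7, Rps21 and Rps12 followed this profile most closely (Pearson r of 0.98, 0.98 and 0.97 over 5 arrays). Rpl7l1, Rps9 and Rps16 ran most against it (r of -0.97, -0.95 and -0.89). These values describe 5 arrays that share their saline rats and normalization.

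Other genes of the ribosome and of TOP messenger RNAs gave a median of 0.23 at 60 min, with 3 of 15 measured genes higher by limma's test (20%, against 13.0% of all tested probes) and none lower (against 11.4%, with 5 below the saline mean). Rack1, a scaffold protein of the small subunit, was 12.89 at 60 min against 11.81 and 12.10 in the saline rats (difference 0.93, adjusted p = 0.0473 with limma). Eef1b2, the exchange factor subunit that reloads elongation factor eEF1A, was 12.05 against 10.63 and 11.02 (1.22, adjusted p = 0.0334 with limma). Npm1, a nucleolar chaperone of ribosome assembly, was 11.06 against 9.07 and 9.46 (1.79, adjusted p = 0.0281 with limma). Eef1a1 (0.49), Btf3 (0.48) and Eif3e (0.60) were above saline without passing, and the elongation factor gene Eef2 stood at -0.21 and Tpt1 at -0.12. Rpsa and Rpl36al1, ribosomal protein genes that the naming rule missed, differed by -0.27 and 0.64 and did not pass.

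Of 11 measured regulators of TOP messenger RNA translation, 2 rose and 2 fell at 60 min (18.2% each way, against 13.0% and 11.4% of all tested probes). Eif4ebp2, a repressor of the cap-binding factor eIF4E, was at 6.63 against 5.33 and 5.52 in the saline rats (difference 1.20, adjusted p = 0.0294 with limma). Akt1s1, an inhibitory subunit of mTOR complex 1, was at least 1.92-fold higher after background correction (adjusted p = 0.0361 with limma), but it came above background only at 30 and 60 min and so entered the test through those arrays. Tsc2, which restrains mTOR complex 1, was at 6.73 against 7.86 and 7.71 (-1.05, adjusted p = 0.0314 with limma), and Mlst8, an mTOR subunit, at 7.76 against 8.86 and 8.72 (-1.02, adjusted p = 0.0327 with limma). Mtor itself differed by 0.02 and the S6 kinase gene Rps6kb1 by -0.17.

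The 57 measured genes of mitochondrial ribosomal proteins had medians of 0.07, -0.08 and -0.18 at 10, 30 and 60 min. At 60 min Mrpl30 rose (2.14), and Mrpl45 (-1.31), Mrpl1 (-1.03), Mrps11 (-0.87) and Mrps15 (at least 1.48-fold lower) fell. These are 1.75% higher and 7.02% lower, against 13.0% and 11.4% of all tested probes. The medians of the cytosolic family at the same times were -0.05, 0.08 and 0.11, and the difference between the families was not tested.

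**Figure D4:**
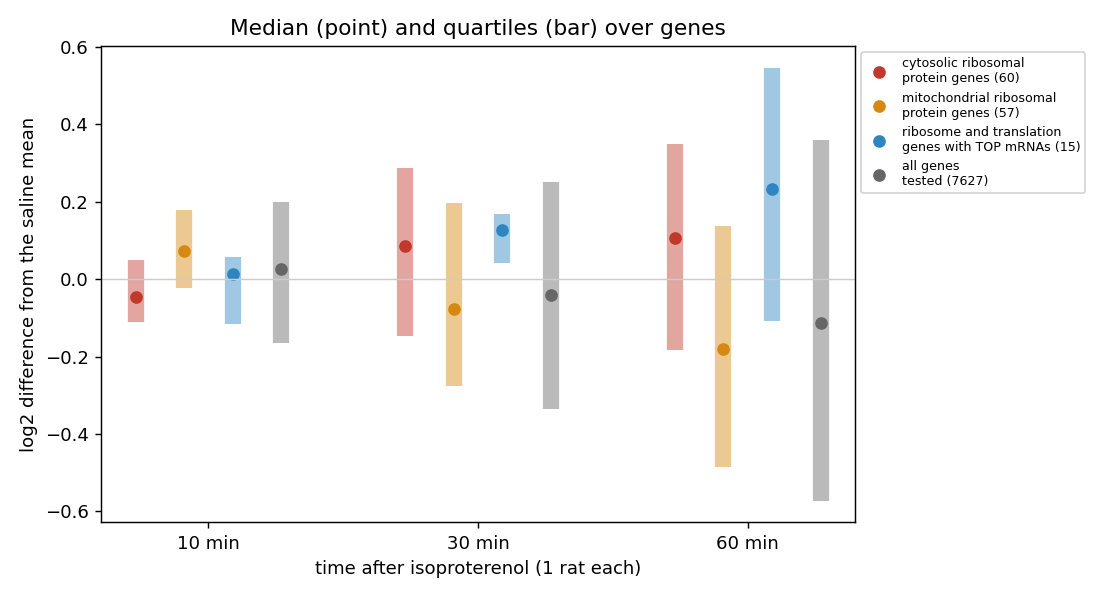
Median (point) and quartiles (bar) over genes of the log2 difference from the saline mean (vertical axis) at 10, 30 and 60 min after isoproterenol (horizontal axis). The cytosolic ribosomal protein genes have medians of -0.05, 0.08 and 0.11, the mitochondrial ones 0.07, -0.08 and -0.18, and all tested genes 0.03, -0.04 and -0.11.

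Promoter letters were set beside these values as a description. The cAMP response element TGACGTCA, searched over 300 bases on either strand, was found in 1 of 52 promoters of the family (1.92%), that of Rpl13, against 1.83% of all promoters. It lies 89 bases before the annotated start and is printed here with the element in capitals, because CREB acts downstream of the beta-adrenergic receptor.
Rpl13, chr19:68062414-68062443, plus strand: gcgggttcgcgTGACGTCAtttccttcttc
Rpl13 differed by 0.01 from saline at 60 min (adjusted p = 0.974 with limma). The shorter element TGACG, which the longer one contains, was found in 40.4% of the family's promoters and 21.2% of all. The 20 tested members that hold it had a 60 min median of 0.09, with 7 near the top of the scale, and the 28 without it 0.25, with 6 near the top. For the pyrimidine tract exactly at the start, the 60 min median was 0.09 in 20 members with it, of which 6 were near the top of the scale, and 0.13 in 28 without it, of which 7 were near the top.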

How the data were processed

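Total RNA of 5 parotid glands was amplified to biotin-labelled cRNA and hybridised to Illumina bead arrays, per the labels' protocols. The authors deposited, per the file headers, intensity and detection p-value columns over 22517 probes. The sorted intensity columns differed by a median of 0.133% between the highest and lowest array, so the deposited intensities were already brought to like quantiles, with no background subtracted (smallest value 43.1). A second deposited table holds the authors' log2 values, with the same rank order on all 5 arrays. The software behind both is not given in the sources used here.

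Background was removed by normexp, with parameters taken from the detection p-values, an offset of 16 was added, and quantile normalization and log2 transformation followed (neqc, limma 3.58.1, R 4.3.3). Differences of dim probes depend on the background step. Probes detected (p under 0.01) on at least 1 array were tested with lmFit and eBayes, 1 mean per group, two-sided, with Benjamini-Hochberg adjustment over all 10793 at 0.05. The spread has 1 residual degree of freedom, from the saline rats, plus 3.88 prior ones (prior SD 0.186), so each isoproterenol rat was assumed to vary as the saline rats did. A fit of isoproterenol against saline had 3 residual degrees of freedom. The fitting was tested on simulated data. The number of arrays limits precision.

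Gene names came from the platform annotation. Of the 64 gene IDs 63, and of their transcripts 62, were in the GRCr8 table. Ribosomal protein genes have many processed pseudogenes and some close paralogues, so probes may share signal with copies. Levels of different probes were set side by side only to describe brightness, such as dim or near the top of the scale. They were not read as amounts of messenger RNA. The named genes are, per time, the 5 highest and 5 lowest members, those that passed, paralogue forms with their partners, stalk genes, Rps6, the 3 nearest the top, the 3 most and least like the median profile, and list genes that passed. Others (Rpl10, Rps3, Rps27 at 60 min, Rpl13, Mtor, Rps6kb1 and genes in sentences of counts) were added after their values were seen. Members and lists were chosen with earlier results of these data known.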

Additional observations from a re-analysis of the deposited data

Results flagged for a closer look

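Of the 60 tested members, 12 lay outside the saline range on one side at 60 min and on the other side at 10 min, with 1 rat at each time (20%, against 23.4% of all tested probes). For 9 of them (15%, against 7.75%) the 60 min rat was the higher one, with a 60 minus 10 min difference of 0.51 for Rpl22, 0.42 for Rps7, 0.42 for Rps12, 0.41 for Rpl7, 0.34 for Rpl17, 0.26 for Rps18, 0.22 for Rpl31, 0.17 for Rpl23 and 0.13 for Rps21. For 3 (5.00%, against 15.7%) it was the lower one, with -0.92 for Rps16, -0.35 for Rps29 and -0.24 for Rpl7l1. None of these differences passed limma's test of 60 against 10 min (the smallest adjusted p was 0.0799, for Rps16). Whether such opposite sides exceed what 2 single rats give was not tested.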

How the results depend on the processing

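The 60 min count of 6 members that passed was 13 with no background correction (9 higher, 4 lower), 13 under an offset of 50 (8 higher, 5 lower), 15 on the authors' processed values and 15 when the prior variance followed intensity (10 higher and 5 lower in each). Of all tested probes, 25.3%, 26.7%, 25.8% and 27.6% passed in these settings, in the same order. The count of members was 0 with no filter on dim probes, where 0 of 22517 probes passed. More probes are adjusted over in that setting. It stayed at 6 with median scaling, detection on at least 2 arrays and a robust prior variance. None of the members near the top of the scale had passed, so the count of 6 without them is fixed. Without those members the median difference was 0.26 at 60 min and 0.19 at 30 min. Leaving out a saline rat left no residual degree of freedom, so only differences were computed: the family's median ranged from 0.04 to 0.15 at 60 min, from 0.03 to 0.13 at 30 min and from -0.08 to -0.001 at 10 min. Under it the 60 min difference of Rpl3, -0.04, was 0.0192 without saline replicate 1 and -0.0969 without replicate 2, and that of Rps6, 0.11, was -0.0321 without replicate 2. By an alternative chosen after seeing the data, 5 members lay at least 1 from saline rat 2 at 60 min (18.1% of all tested probes) and 9 from saline rat 1 (25%), against 7 from their mean. At 10 and 30 min and for isoproterenol against saline no member passed in any setting run, leaving out each rat in turn included for the last. No paired analysis was possible because each array is a different rat and the labels give no pairing.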

Other observations

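Rps2 and Rpl3l, which both rose at 60 min, are neighbours on rat chromosome 10 in the GRCr8 annotation, with Snora64 and Ndufb10 as the genes that start between them. Neither Snora64 nor Ndufb10 was analysed here. Their 60 min differences were 1.44 for Rps2 and 1.68 for Rpl3l, and Rpl3l was above both saline rats already at 10 min, where Rps2 was not. This pair was noticed after the values were seen and was not tested.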
